A study of Saccharomyces cerevisiae with 10 samples.

Results

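The mitotic exit network is the signalling pathway that lets budding yeast leave mitosis and divide. The 10 genes described here were taken by name as its core components and close partners (TEM1, LTE1, CDC15, DBF2, DBF20, MOB1, CDC14, NET1, CDC5 and SPO12), out of 7252 genes in the deposited tables. All 10 passed the filter on low counts, which left 6492 genes for testing. RNA was sequenced in bulk from high and low subpopulations, sorted fractions of Saccharomyces cerevisiae cultures. Every library came from the same strain, a prototrophic derivative of the laboratory strain BY4741 that carries a green fluorescent protein driven by pRPL28, the promoter of a ribosomal protein gene. Cells were grown for 4 h in the rich medium YPD from an overnight culture, washed, and held for 1 h in nitrogen-limited medium with 0.8 mM proline as the nitrogen source (NLIM-PRO). They were then separated by fluorescence-activated cell sorting into bright (high) and dim (low) fractions on pRPL28 fluorescence and side scatter. Doublets and budding cells were gated out of both fractions, so neither is an unselected sample of dividing cells.

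There were 5 libraries of each fraction, named H or L with a code that high and low libraries share, and the series describes them as biological replicates. The study left the low libraries L2_2609 and L1_2709 out after a principal component analysis, so low was compared with high over 5 high and 3 low libraries, with the values of those 2 shown beside the rest. Totals were 22167864 to 27752702 counts in the high libraries and 15879779 to 23644299 in the low ones. Low counts were thinly filled in the low libraries: 28 to 47 genes per library had between 1 and 9 counts, against 275 to 345 in the high libraries, and the lowest 1% of non-zero counts lay at 16 to 26 counts against 1 to 2. Genes at 0 numbered 983 to 1552 per low library and 383 to 511 per high library. The genes of MATa cells were present in both fractions. STE2, the alpha-factor receptor, was at 170 to 430 CPM (counts scaled to library size) in high and 349 to 509 CPM in low. Of 4 MATalpha markers, MF(ALPHA)1, an alpha-factor gene, was at 0 to 4.88 CPM and STE3, the a-factor receptor, at 0 to 8.99 CPM. The other 2 were present in every library, MF(ALPHA)2 at 7.64 to 13.3 CPM and the agglutinin gene SAG1 at 41.8 to 107 CPM. None of the 5 MATa and 4 MATalpha markers tested passed the test in edgeR. At an unadjusted p-value under 0.05, 4 MATa markers were higher in low, beside 6.52% of all genes tested, and 0 MATalpha markers differed.

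In budding yeast, mitotic exit is driven by the phosphatase Cdc14, which reverses phosphorylation by the mitotic cyclin-dependent kinase. For most of the cell cycle Cdc14 is held in the nucleolus by its anchor Net1. A first, partial release in early anaphase depends on the polo kinase Cdc5 and on Spo12, and full release depends on a cascade in which the GTPase Tem1 activates the kinase Cdc15, which activates the kinase Dbf2 or its paralogue Dbf20 bound to Mob1. The guanine exchange factor-like protein Lte1, at the bud cortex, promotes Tem1 signalling, and the Bfa1-Bub2 complex restrains it. Transcripts of CDC5, DBF2 and SPO12 are known to peak around mitosis.

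Of the 10 genes, 7 were lower in the low subpopulation at an adjusted p-value under 0.05 in edgeR's quasi-likelihood test and 0 were higher, where 4.33% of all genes tested were lower and 0.832% were higher. The 7 were SPO12, DBF2, CDC5, TEM1, DBF20, CDC14 and MOB1, and the 3 that did not pass were LTE1, NET1 and CDC15. From these data the study had already reported SPO12, DBF2 and CDC5 as higher in the high subpopulation. The 10 genes were chosen with such results known, so these counts describe the list and are no independent test of it. At an unadjusted p-value under 0.05, 7 genes were lower and 1, CDC15, was higher, beside 11.1% and 6.52% of all genes tested. DESeq2 called 7 lower and 0 higher, beside 7.21% and 2.67% of its genes. The median log2 fold change of low over high was -1.34 over the 10 genes and -0.02 over all genes tested. For 8 of the 10 genes, LTE1 included, each of the 3 low libraries lay below each of the 5 high ones, which held for 10.6% of all genes tested, and with all 5 low libraries this held for 7, beside 6.13% of all genes tested. Summed over the 10 genes, the level was 885 to 1031 CPM in the high libraries and 334 to 437 CPM in the low ones. In bulk samples, fewer cells that express these genes and less RNA of them per cell cannot be told apart.

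Same-coded high and low libraries among the 8 deviated together from their group means (r of 0.27, 0.10 and 0.30 in the 3 pairs). They were treated as pairs in separate fits. The main fit above, which also gives the values of each gene below unless stated, did not use the pairs. In the fit with paired replicates over these 8 libraries, where H2_2609 and H1_2709 have no partner, 4 of the 10 genes were called lower, DBF2, MOB1, CDC5 and SPO12, where 1.22% of all genes tested were. In the paired fit over all 10 libraries 7 were, where 2.75% of all genes tested were, although 1 of the 5 pairs, 2_2709, then correlated with an r of only 0.02. With the shared ending of the codes as a term, 7 were called as well. The same 4 genes were called lower in each of the 21 alternative fits. TEM1, CDC14 and DBF20 had log2 fold changes of -1.43, -1.17 and -1.37 in the paired fit over 8 libraries, with adjusted p-values of 0.057, 0.064 and 0.103, and adjusted p-values of 0.0075, 0.044 and 0.014 in that over 10. Without pairing, 7 were called lower with all 10 libraries, where 2.84% of all genes tested were.

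**Figure D1:**
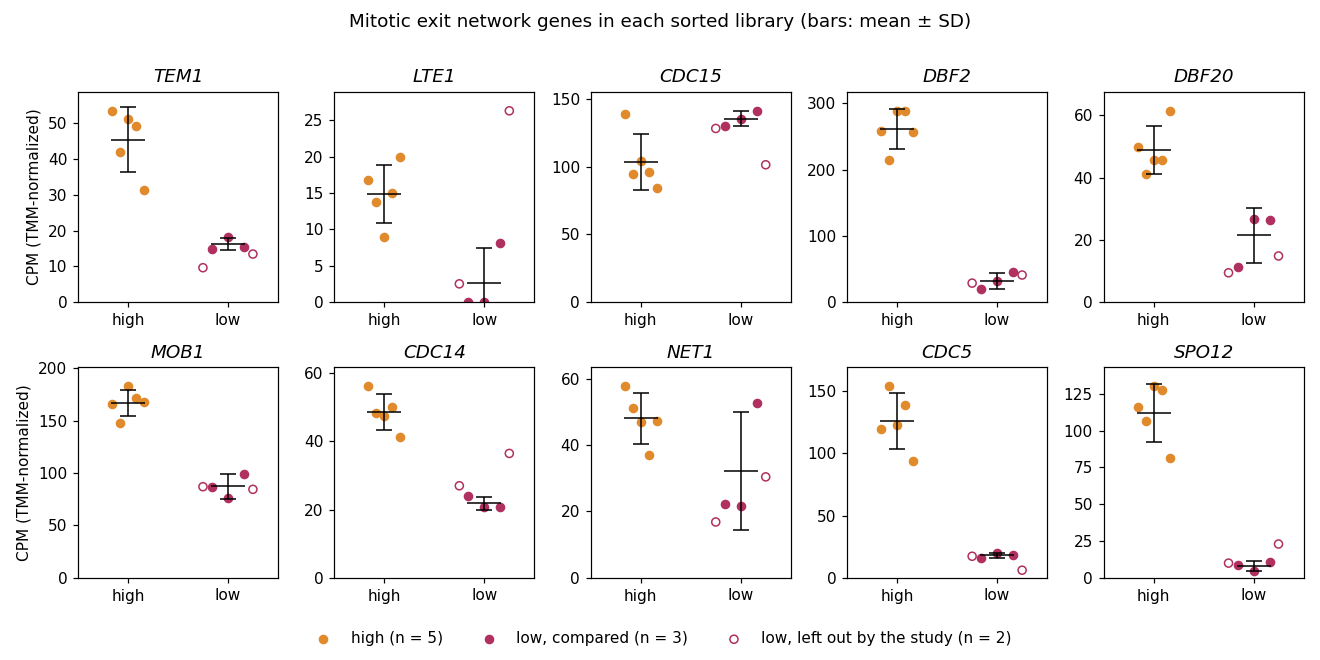
Level of each mitotic exit network gene in CPM (TMM-normalized, linear axes from 0) in the high (n = 5) and low libraries, where filled low points are the 3 compared, open low points the 2 left out by the study, and bars the mean ± SD of the filled points. DBF2, CDC5 and SPO12 show the widest separation, CDC15 has low libraries at 101 to 141 CPM within the range of the high ones or just above it, and LTE1 is at 0 in 2 of the 3 low libraries compared.

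The promoters of DBF2, SPO12 and CDC5, the genes with the largest falls among those called, are shown because 2 of them hold a match to the box bound by Mcm1, a transcription factor that acts with forkhead factors at genes expressed in G2/M. Each is the 300 bases from 250 before to 50 after the first base of the start codon, read 5′ to 3′ on the gene's strand from the S. cerevisiae R64 genome. DBF2 is at chrVII:667939-668238 (plus strand), SPO12 at chrVIII:401184-401483 (plus) and CDC5 at chrXIII:271087-271386 (minus). Capitals mark matches, on either strand, to the Mcm1 box or to the forkhead core TAAACAA.
DBF2: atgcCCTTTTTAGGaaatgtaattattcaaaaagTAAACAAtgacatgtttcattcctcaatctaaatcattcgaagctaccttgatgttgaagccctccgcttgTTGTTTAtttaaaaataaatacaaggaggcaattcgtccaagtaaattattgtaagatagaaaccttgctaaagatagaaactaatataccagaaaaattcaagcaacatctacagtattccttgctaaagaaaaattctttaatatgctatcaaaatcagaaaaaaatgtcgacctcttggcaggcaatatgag
SPO12: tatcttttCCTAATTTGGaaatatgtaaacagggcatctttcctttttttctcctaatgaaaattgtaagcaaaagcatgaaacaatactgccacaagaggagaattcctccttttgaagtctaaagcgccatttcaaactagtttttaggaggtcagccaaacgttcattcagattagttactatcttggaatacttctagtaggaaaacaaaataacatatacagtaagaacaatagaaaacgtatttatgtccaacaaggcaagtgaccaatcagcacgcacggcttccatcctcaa
CDC5: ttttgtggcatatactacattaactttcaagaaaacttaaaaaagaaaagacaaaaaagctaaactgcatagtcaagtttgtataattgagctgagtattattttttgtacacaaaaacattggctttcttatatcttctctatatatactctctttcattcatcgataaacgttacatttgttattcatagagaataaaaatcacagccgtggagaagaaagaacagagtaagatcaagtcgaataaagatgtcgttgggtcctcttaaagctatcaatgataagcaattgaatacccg
The DBF2 promoter holds the Mcm1 box CCTTTTTAGG, whose letters match on both strands, and 2 forkhead cores, the nearer of them 20 bases downstream of the box. SPO12 holds 1 Mcm1 box, CCTAATTTGG, and the CDC5 window holds neither motif. Among all 6663 promoters of coding genes that could be cut, 7.19% hold an Mcm1 box, 12.2% a forkhead core and 0.615% both. Of 6 other network genes, TEM1 and CDC14 hold 1 forkhead core each, and CDC15, DBF20, LTE1 and NET1 hold no match. The SPO12 promoter has the forkhead core without its last base 7 bases downstream of its Mcm1 box, a form chosen after the sequences were seen and found in 6 of the 9 network promoters examined and in 27.6% of all. These matches describe letters in a window and were not tested for binding.

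At the top of the cascade, TEM1 (YML064C, chrXIII:145139-145876, minus strand), the GTPase switch, fell 2.80-fold. Its level was 53.4, 41.8, 51.0, 49.2 and 31.3 CPM in the high libraries H1_2609, H2_2609, H1_2709, H2_2709 and H_2909, and 14.9, 18.2 and 15.5 CPM in the low libraries L1_2609, L2_2709 and L_2909. The groups did not overlap, and the left-out L2_2609 and L1_2709, at 9.63 and 13.4 CPM, were lower still. This was a log2 fold change of -1.49 (SE 0.22, edgeR adjusted p = 0.0062). With paired replicates over 8 libraries TEM1 did not pass (edgeR adjusted p = 0.057).

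LTE1 (YAL024C, chrI:101565-105872, minus strand), which promotes Tem1 signalling at the bud cortex, was the least abundant of the 10 genes per length and the least settled. It had 16.8, 13.8, 9.0, 15.0 and 19.9 CPM in the high libraries, in the same order, and 0, 0 and 8.14 CPM in the low ones, that is 0, 0 and 158 counts. A count of 0 in L1_2609 and L2_2709 allows up to 0.131 and 0.143 CPM, for counting error only. The left-out libraries were far apart: L2_2609 had 2.53 CPM, whereas L1_2709 had 26.3 CPM, above every high library. The log2 fold change of -2.46 (SE 1.40) did not pass the test (edgeR adjusted p = 0.42), and with all 10 libraries it was -1.01. Without L_2909 both remaining low libraries were at 0 and LTE1 was called lower (adjusted p = 0.0012), with no size that can be read from the fit. The low libraries are also those with few genes at 1 to 9 counts, as given above, and the part of this in the spread of LTE1 was not tested.

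Within the kinase cascade DBF2, DBF20 and MOB1 fell, while CDC15 did not pass the test. CDC15 (YAR019C, chrI:172211-175135, minus strand), the kinase that Tem1 activates, had 139, 94.3, 104, 96.1 and 84.3 CPM in the high libraries and 130, 135 and 141 CPM in the low ones. The low libraries lay above 4 of the 5 high ones and overlapped H1_2609, and the left-out libraries had 128 and 101 CPM. CDC15 had a log2 fold change of 0.39 (SE 0.16, 95% confidence interval 0.02 to 0.75, edgeR adjusted p = 0.25), and without H1_2609 it was 0.52 and called higher (adjusted p = 0.047). KIN3, a protein kinase gene of the G2/M list next to CDC15 on the same strand, fell by 2.66 on the log2 scale (SE 0.24). The antisense gene YAR019W-A overlaps CDC15 over 138 bases, and since counting by strand is not stated its reads cannot be told apart there, but it had at most 53 counts in any library.

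DBF2 (YGR092W, chrVII:668189-669907, plus strand), the kinase that Cdc15 activates, fell 8.07-fold. Its high libraries had 258, 214, 288, 288 and 256 CPM and its low libraries 20.2, 31.9 and 45.0 CPM. All 5 low libraries, with 28.9 and 41.0 CPM in those left out, lay far below the lowest high one. DBF2 thus had a log2 fold change of -3.01 (SE 0.26, edgeR adjusted p = 0.000497). Within each of the 3 shared code endings, the difference in log2 of mean CPM plus 0.5 was -3.52, -3.15 and -2.50. These are not from a fit, and the low side was L1_2609, L2_2709 and L_2909 in turn.

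Its paralogue DBF20 (YPR111W, chrXVI:747306-749000, plus strand) fell less, by 2.27-fold. It had 49.8, 41.3, 45.6, 45.6 and 61.5 CPM in the high libraries and 11.3, 26.7 and 26.3 CPM in the low ones, without overlap, and 9.45 and 14.9 CPM in the left-out libraries. The log2 fold change of -1.19 (SE 0.29) passed the test narrowly (edgeR adjusted p = 0.048), and the call was lost in 10 of the 21 alternative fits, among them those without any single library other than L1_2609 (adjusted p up to 0.102).

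The difference between the paralogues was tested on their ratio within each library. DBF2 stood at 4.14 to 6.26 times the level of DBF20 in the high libraries and at 1.19 to 1.75 times in the 3 low ones, so the ratios did not overlap. High libraries had a mean log2 ratio of 2.41 ± 0.25 (SD, n = 5) and low libraries one of 0.61 ± 0.31 (SD, n = 3), a difference of -1.81 (exact two-sided permutation test, p = 0.0357, the smallest this design can give, and the same after Benjamini-Hochberg adjustment over the 2 ratios tested). With all 10 libraries the difference was -1.45 (exact permutation p = 0.0079, again the smallest that design can give). These tests ignore the pairing of libraries. DBF2 had already been reported from these data as higher in high, so they are no independent test of its fall. Within the 3 pairs the ratio was lower in the low library each time, by 1.75 on average on the log2 scale, and an exact paired test there can give no p below 0.25. The coding sequences share 73.3% of 1669 aligned bases, with no identical run longer than 21 bases.

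**Figure D2:**
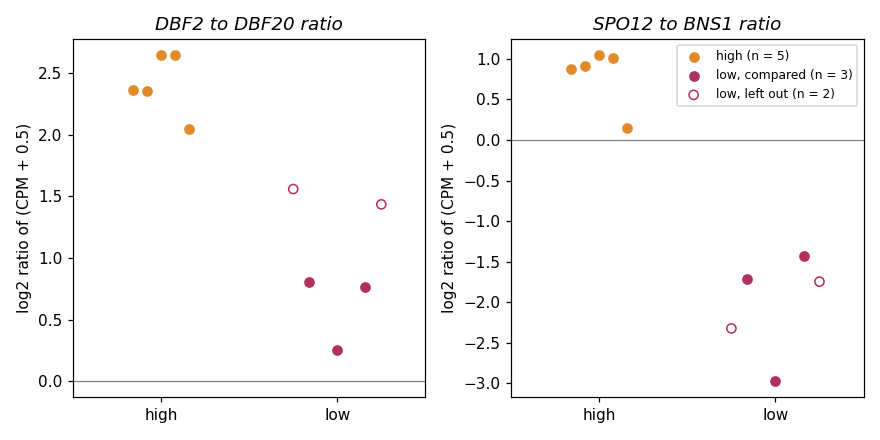
Log2 ratio of CPM (each plus 0.5) of DBF2 to DBF20 (left) and of SPO12 to BNS1 (right) in every library, with high libraries (n = 5), low libraries compared (n = 3) and low libraries left out (n = 2, open). For both pairs every low library lies below every high one, with mean differences over the 8 libraries compared of -1.81 and -2.84.

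MOB1 (YIL106W, chrIX:166415-167444, plus strand, with an intron), the activating subunit of Dbf2 and Dbf20, fell 1.92-fold, with little spread between libraries. The high libraries had 166, 148, 183, 172 and 168 CPM and the low ones 86.5, 75.9 and 99.2 CPM. The left-out libraries, at 87.0 and 84.5 CPM, fell among the low ones, and no low library reached a high one. For MOB1 the log2 fold change was -0.94 (SE 0.13, edgeR adjusted p = 0.0051).

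The phosphatase gene CDC14 (YFR028C, chrVI:208413-210068, minus strand), whose product is the end point of the pathway, had 56.1, 48.2, 47.4, 50.01 and 41.4 CPM in the high libraries and 24.0, 20.6 and 20.8 CPM in the low ones. The groups did not overlap, and the left-out libraries were intermediate at 27.0 and 36.5 CPM. The log2 fold change was -1.16 (SE 0.16, edgeR adjusted p = 0.0053), a 2.23-fold lower level. With paired replicates over 8 libraries CDC14 did not pass (edgeR adjusted p = 0.064).

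NET1 (YJL076W, chrX:295245-298814, plus strand), which encodes the nucleolar anchor of Cdc14, had 57.7, 51.2, 47.1, 36.9 and 47.2 CPM in the high libraries and 22.3, 21.5 and 52.6 CPM in the low ones. Low and high overlapped through L_2909 alone among the libraries compared, and the left-out libraries had 16.8 and 30.4 CPM. For NET1 the log2 fold change was -0.58 (SE 0.31, edgeR adjusted p = 0.37), and without L_2909 it was -1.13 and called lower (adjusted p = 0.018). The antisense gene APQ13 overlaps NET1 over 355 bases and had at most 35 counts in any library. The CDC14 to NET1 ratio of FPKM, a level per gene length, was 1.89 to 2.92 in the high libraries and 0.853 to 2.32 in the 3 low ones, which overlap.

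Both genes of the early release fell strongly. CDC5 (YMR001C, chrXIII:269019-271136, minus strand), the polo kinase, had 119, 154, 123, 139 and 94.1 CPM in the high libraries and 16.2, 20.3 and 18.0 CPM in the low ones. Its left-out libraries had 17.3 and 6.11 CPM, so all 5 low libraries lay far below the lowest high one. The log2 fold change was -2.79 (SE 0.19, edgeR adjusted p = 0.000184), a 6.93-fold lower level.

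SPO12 (YHR152W, chrVIII:401434-401955, plus strand), a nucleolar protein of the early release, had the largest fall of the 10 genes among those that passed the test, 14.2-fold. It had 116, 106, 130, 127 and 81.5 CPM in the high libraries and 9.01, 4.34 and 10.5 CPM in the low ones. The left-out L1_2709, at 23.0 CPM, was the highest low library and still far below H_2909, the lowest high one. SPO12 had a log2 fold change of -3.82 (SE 0.32, edgeR adjusted p = 0.000441), which ranked 119 from the lowest of 6492. Genes ranked below it include some at 0 in low libraries, such as the mitotic cyclin gene CLB2 in L2_2709.

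BNS1, the paralogue that can replace SPO12 when overexpressed, fell less, by 0.98 on the log2 scale (SE 0.16, edgeR adjusted p = 0.0091), from 56.2 to 73.8 CPM in the high libraries to 29.0 to 37.5 CPM in the 3 low ones. The left-out libraries had 52.0 and 78.3 CPM of BNS1, and with all 10 libraries its log2 fold change was -0.49 and did not pass (adjusted p = 0.42), nor did it with paired replicates (adjusted p = 0.081). SPO12 stood at 1.105 to 2.06 times BNS1 in the high libraries and at 0.127 to 0.372 times in the 3 low ones. The mean log2 ratio fell by 2.84 (exact two-sided permutation test, p = 0.0357, again the smallest possible and unchanged by adjustment). With all 10 libraries it also fell by 2.84 (exact permutation p = 0.0079, the smallest possible there). Both tests were without regard to pairs, and SPO12 too had already been reported from these data as higher in high. The SPO12 to BNS1 ratio was lower in the low library of each of the 3 pairs, by 2.71 on average on the log2 scale.

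**Figure D3:**
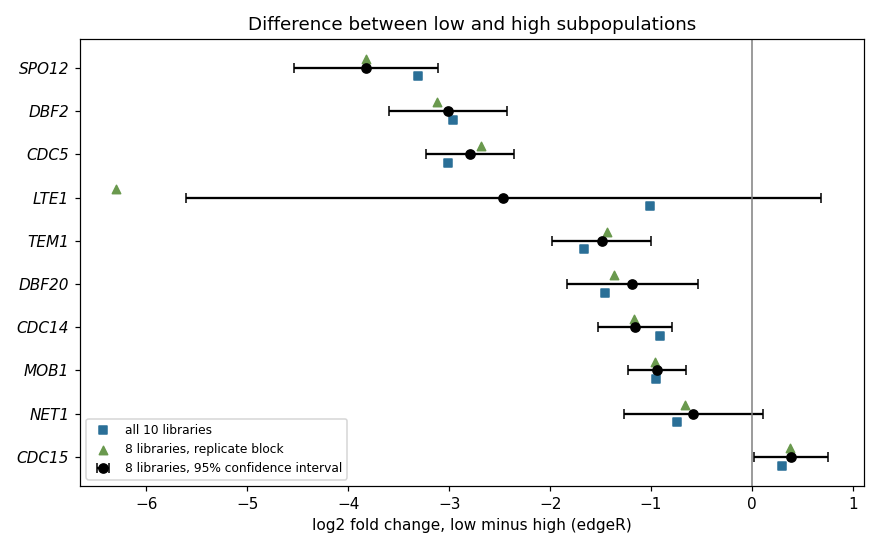
Log2 fold change of low over high for each gene from edgeR, with the 95% confidence interval over the 8 libraries compared (black), the value with all 10 libraries (squares) and the value with paired replicates (triangles). SPO12, DBF2 and CDC5 lie between -3.82 and -2.79, LTE1 has the widest interval (-5.61 to 0.68) and a paired value of -6.30 that rests on low libraries at 0, and CDC15 is the gene above 0.

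The order of the 10 genes by level per length differed between the subpopulations. In the high subpopulation the mean FPKM was highest for SPO12 (212), MOB1 (174) and DBF2 (149), and in the low subpopulation for MOB1 (91.1) and CDC15 (45.8), with TEM1 (21.7), DBF2 (18.6) and SPO12 (15.0) after them. CDC5 moved from 58.4 FPKM, next to TEM1 at 60.4, to 8.47 FPKM, next to NET1 at 8.89, and these neighbours do not differ beyond their spread over libraries, nor do CDC14 (28.9) and DBF20 (28.3) in high. The FPKM of DBF2 was 3.16 to 5.17 times that of CDC15, the kinase upstream of it, in the high libraries and 0.264 to 0.543 times in the 3 low ones, so their order turned over in every library compared. Relative to its subunit MOB1, DBF2 stood at 0.794 to 0.922 times in high and at 0.128 to 0.2497 times in low. Both ratios, chosen after the values were seen, stayed without overlap when the left-out libraries were added (up to 0.689 and 0.267 in low).

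**Figure D4:**
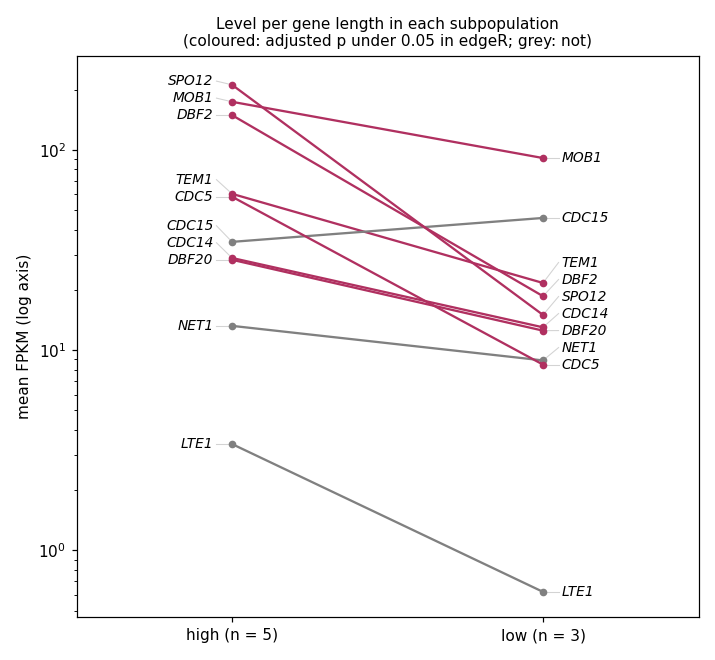
Mean FPKM (log axis) of each gene in the high (n = 5) and low (n = 3) libraries compared, with genes at an adjusted p-value under 0.05 in edgeR coloured and the others grey. SPO12 goes from 212 to 15.0 FPKM and crosses CDC15, which goes from 34.8 to 45.8 FPKM.

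The 22 other regulators of mitotic exit, a list of the Tem1 inhibitors, the scaffold, polarity kinases, separase and its partners, nucleolar proteins and the downstream targets of Cdc14, had a median log2 fold change of -0.16. In edgeR 5 were called lower and 0 higher, beside the 4.33% and 0.832% of all genes tested. At an unadjusted p under 0.05, 8 were lower and 0 higher (11.1% and 6.52% of all), and in DESeq2 7 and 0 (7.21% and 2.67%). With all 10 libraries and no pairing 2 were called lower (2.84% of all). With paired replicates 3 were called lower over 8 libraries (1.22% of all) and 3 over all 10 (2.75% of all). Whether this list and the network differ was not tested. SWI5, a transcription factor gene expressed in mitosis whose product enters the nucleus once Cdc14 acts on it, fell by 3.99 on the log2 scale (SE 0.37, adjusted p = 0.00074), from 75.1 to 154 CPM in high to 4.48 to 11.3 CPM in low. ZDS2, which with ZDS1 restrains a form of protein phosphatase 2A to allow Cdc14 release, fell by 2.78 (SE 0.34, adjusted p = 0.0026) and had a log2 fold change of -1.93 with all 10 libraries (adjusted p = 0.036), while ZDS1 had a log2 fold change of -0.17 (adjusted p = 0.76). SWI5 and ZDS2 were the genes called with all 10 libraries without pairing.

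The other genes of this list that were called with 8 libraries were BNS1, CLA4 and TOF2. CLA4, a polarity kinase that acts on Lte1, had a log2 fold change of -1.40 (adjusted p = 0.018). The call was lost with all 10 libraries without pairing (-0.95, adjusted p = 0.19), where L1_2709 stood at 103 CPM. It was also lost without H1_2709 (adjusted p = 0.055) or H2_2709 (adjusted p = 0.053). With paired replicates CLA4 was called lower over 8 libraries (-1.29, edgeR adjusted p = 0.026) and over all 10 (-1.12, edgeR adjusted p = 0.028). TOF2, a nucleolar protein that binds Cdc14, had a log2 fold change of -0.96 (adjusted p = 0.032). This call did not survive the addition of the left-out libraries, the pairing, or the removal of H1_2609, H2_2609, H1_2709, H2_2709 or L2_2709 (adjusted p of 0.060 to 0.094 for these removals). Both genes of the complex that restrains Tem1 did not pass the test. BFA1 had 9.86 to 15.1 CPM in the high libraries, 1.84, 0 and 2.83 CPM in the low ones and 0 in both left out (log2 fold change -2.97, SE 0.96, adjusted p = 0.13). It was called lower in 5 of the 21 alternative fits. These were DESeq2 (adjusted p = 0.0059), the fit without L2_2709 (adjusted p = 0.013) and the limma fits on log2 FPKM (adjusted p of 0.0070 to 0.049). BUB2 had 13.4 to 16.6 CPM in high and 11.9 to 29.5 CPM in low (0.49, SE 0.30, adjusted p = 0.44). SLK19 and ESP1, a pair that acts in the early release, had log2 fold changes of -1.04 (adjusted p = 0.11) and -0.72 (adjusted p = 0.19). SLK19 was called lower by DESeq2 and without L2_2709, and ESP1 without L1_2609.

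Genes of neighbouring cell cycle stages moved beside the network. All 12 of the other G2/M genes of the CLB2 cluster examined were called lower, where 4.33% of all genes tested were. With paired replicates over 8 libraries 10 were, where 1.22% of all genes tested were. The 12 had a median log2 fold change of -2.54. They ranged from -4.70 (CLB2, the main mitotic cyclin) to -1.46 (MYO1, the myosin of the cytokinetic ring). Their summed level was 1298 to 1719 CPM in the high libraries and 214 to 360 CPM in the 3 low ones (up to 443 CPM in all 5). Of 8 daughter-specific G1 genes, 3 were called higher and 1 lower, beside 0.832% and 4.33% of all genes tested. DSE2, a glucanase-like wall protein, had a log2 fold change of 2.50 and CTS1, the chitinase of cell separation, had 2.41. The gene called lower was EGT2, a wall protein gene of early G1 named after its values were seen, at -1.79. The summed level of these 8 was 679 to 1163 CPM in high, 2180 to 2846 CPM in the 3 low libraries compared and 1593 to 2846 CPM in all 5, and CTS1 held the largest part of it in low (1330 to 1669 CPM in the 3). The part of cell cycle stage in the values of the mitotic exit network was not tested.

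**Figure D5:**
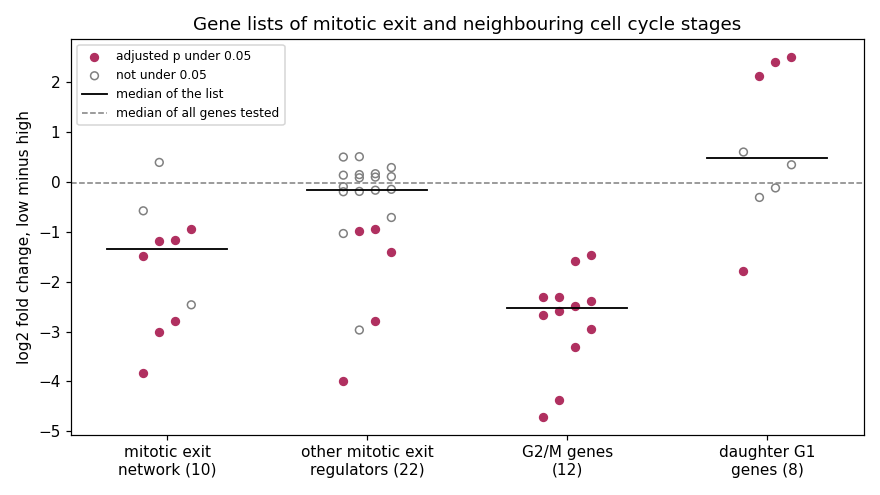
Log2 fold change of low over high (edgeR, 8 libraries) of each gene in 4 lists, filled where the adjusted p-value was under 0.05, with the median of each list as a black line and that of all genes tested as a dashed line. The 10 network genes have a median of -1.34, the 22 other regulators -0.16, the 12 G2/M genes -2.54 and the 8 daughter G1 genes 0.47.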

How the data were processed

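The authors sorted the subpopulations, purified messenger RNA with poly-T beads, primed it with random hexamers, filtered the reads and mapped them with HISAT2 (version not given in the sources used here) to the Ensembl genome. They deposited raw counts of reads per gene and FPKM values, whose counting tool, strand setting and build name are not given in the sources used here. Gene coordinates are those of the deposited tables. The reference genome used for promoters was S. cerevisiae R64, in which 6660 of 6664 coding genes of the tables begin with ATG and all 10 network genes have the same start and end.

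The 10 genes and all lists were chosen with earlier results of these data known. Low was compared with high over 5 and 3 libraries with edgeR 4.0.16 in R 4.3.3 (filterByExpr, TMM, quasi-likelihood test without pairing, Benjamini-Hochberg adjustment over 6492 genes, threshold 0.05). CPM used TMM factors over all 10 libraries. Ratios of paralogues used log2 of CPM plus 0.5 and exact permutation tests in scipy 1.17.1, adjusted over 2 ratios. The p-values measure the spread between these libraries. Reads carry no molecular identifiers, so limits from a count of 0 cover counting error only. No 2 libraries agreed within sampling noise.

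High and low libraries carry common codes in their titles. Deviations from group means of same-coded libraries correlated with r of 0.27, 0.10 and 0.30 over 4347 genes of at least 30 CPM, above the limit of 0.1, so the codes were taken as pairs, the second narrowly. With the left-out libraries included, the 5 correlations were 0.02 to 0.60, and the limit was missed by 1 pair. In the paired fit over 8 libraries H2_2609 and H1_2709 stand alone, without a low library of their code. All network genes, BFA1, BUB2, BNS1, every called gene of the 22 other regulators and the 3 largest uncalled ones were named, with at most 2 examples from other lists except KIN3, named as a neighbour. Alternatives were all 10 libraries, the paired fit, other filters and scalings, DESeq2 1.42.0, limma 3.58.1 with voom or on log2(FPKM + 1) and log2(FPKM + 0.1), and each library left out. The promoter of MOB1 is not reported here. The edgeR fit was tested on simulated data. The files used hold 0 columns of other samples.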

Additional observations from a re-analysis of the deposited data

How the results depend on the processing

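The count of 7 network genes called lower became 4 with paired replicates (replicate block) over 8 libraries, was 7 with them over all 10, and ranged from 6 to 8 with each library left out, the 8 arising without L_2909, where LTE1 and NET1 were called and DBF20 was not. The count called higher was 0 to 1, the 1 being CDC15 without H1_2609. The 5 other regulators called lower became 2 with all 10 libraries, 3 with paired replicates over 8 or over 10 libraries, and 3 to 6 with each library left out (3 without H1_2709 or H2_2709). No log2 fold change of the 10 network genes changed sign in any alternative. The same held for BFA1, BUB2, BNS1, SWI5, TOF2, ZDS2, CLA4 and both paralogue ratios. Signs of the remaining regulators were not compared. The difference in log2 ratio ranged from -1.91 to -1.63 for DBF2 to DBF20 and from -3.14 to -2.37 for SPO12 to BNS1 with each library left out, at adjusted exact permutation p-values of 0.057 to 0.095, the smallest those designs allow. Within pairs, tests added after the data were seen, the differences were -1.75 and -2.71 over 3 pairs (exact paired permutation p = 0.25) and -1.45 and -2.84 over 5 pairs (p = 0.0625), again the smallest possible. The paired fit over 8 libraries changed no other call of the network genes. In all settings the median of all genes moved by less than 0.1 on the log2 scale. For LTE1 and BFA1, zeros in low libraries leave the size of a fall undetermined.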
